A study of Mus musculus with 8 samples.

Results

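The genes described here are 10 targets of Wnt signalling and markers of the hepatocytes that surround the central vein of the liver lobule, namely Glul, Slc1a2, Rhbg, Cyp2e1, Cyp1a2, Axin2, Lgr5, Tbx3, Rnf43 and Znrf3. They were chosen by name, with earlier results of these data known, and each symbol was matched to 1 Ensembl identifier. All 10 are present in both deposited tables of the series, which hold 23634 and 21201 genes. The study sequenced RNA from livers of Wild-type (WT) mice and of mice with the genotype Cpeb4 KO. In the latter, the gene of the cytoplasmic polyadenylation element binding protein Cpeb4 is knocked out. The 8 libraries form 4 groups of 2, in this order: Cpeb4 KO purified ER (endoplasmic reticulum), Cpeb4 KO total liver, WT purified ER and WT total liver. The ER came from mice fasted overnight, and no treatment is recorded. Age, strain, the deleted exons, the tissues in which the gene was deleted and the feeding state behind the total liver RNA are not given in the labels. All RNA came from bulk liver or from ER purified from it, so fewer cells of a type and less RNA per cell cannot be told apart in any value, and in the ER preparations neither can a change in the RNA bound to the ER.

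Hepatocytes are zoned along the axis from the portal vein to the central vein. Endothelial cells of the central vein secrete Wnt ligands and R-spondin 3, and the hepatocytes beside them respond through Frizzled and LRP receptors, stabilised beta-catenin and TCF transcription factors. The response switches on glutamine synthetase (Glul), which takes up ammonia that escaped the urea cycle, and enzymes of drug metabolism, together with brakes on the pathway itself (Axin2, Rnf43 and Znrf3). Cpeb4 binds U-rich cytoplasmic polyadenylation elements (CPEs) in the 3′ ends of mRNAs and changes their poly(A) tails and translation. The comparison asks whether these transcripts differ in amount between the genotypes.

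None of the 10 transcripts passed the authors' test in either table. Of the 10 members tested in the authors' deposited larger table, 0 had an adjusted p under 0.05 (DESeq2, Wald test), against 0.296% of all 14180 tested genes. In the authors' deposited smaller table, 0 of 9 did (DESeq2, Wald test), against 0.266% of 11661, and Lgr5 had no adjusted p there because of its low mean. Without adjustment, 2 members (Cyp1a2 and Tbx3) had a p under 0.05 in the deposited larger table and 1 (Rnf43) in the deposited smaller table, against 3.62% and 4.11% of all tested genes. All 3 were lower in the Cpeb4 KO. The median log2 fold change (Cpeb4 KO over WT) of the tested members was -0.03 and -0.06 in the authors' deposited tables (larger, then smaller), against medians of -0.00083 and 0.00085 over all tested genes. Members lay on both sides of 0, with 4 above and 6 below in the deposited larger table and 3 above and 6 below in the smaller, and 49.6% and 50.3% of all tested genes were above 0.

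The tables do not say which RNA preparation they cover, so they are called the larger and the smaller table by their number of genes. They give a mean per gene and no column per library. The reads of single libraries could still be worked out for many genes, because a mean of whole read counts over 4 libraries of known relative depth, written to 15 digits, fits a single set of 4 whole numbers. Of 1000 randomly drawn tested genes with a mean of at most 600, 997 in the larger and 998 in the smaller table had a single solution. The difference between the genotypes' libraries so obtained had the sign of the authors' deposited fold change in 98.3% and 99.4% of them. Genes with a single read put 2 libraries on each side of the fold change. The side in which Cpeb4 is low is called Cpeb4 KO here, since the tables name neither group, and no library was matched to a labelled sample. Relative depths were 1.24 and 0.904 for the Cpeb4 KO libraries and 1.26 and 0.717 for the WT libraries of the larger table. In the smaller table they were 1.64 and 0.839 for the Cpeb4 KO libraries and 0.870 and 0.839 for the WT libraries. Values per library below are read counts divided by relative depth (normalised counts). They are given as values and were not tested. Those of Tbx3, Slc1a2 and Cyp1a2 are less certain than the rest, because chance combinations become more frequent at high means, although a single one was found for each value given.

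Cpeb4 itself had 506 and 580 normalised counts in the Cpeb4 KO libraries and 1511 and 1657 in the WT libraries of the larger table. Values of the smaller table were 193 and 225 in the Cpeb4 KO libraries and 689 and 634 in the WT libraries. The genotypes were far apart in both tables, and since the sign of Cpeb4 defined the direction, this is no separate check of the labels. Cpeb4 reads remained in the Cpeb4 KO libraries, and the protein was not measured. All 7 hepatocyte markers measured were tested in both tables, with means of at least 65800 and 25452 normalised counts. Endothelial markers had medians of 0.01 over 11 and -0.03 over 9 tested genes in the authors' deposited tables. They were chosen for liver endothelium in general, so they do not single out the central vein cells that secrete the Wnt ligands. Kupffer cell markers (8 of 9 and 9 of 9 below 0, medians -0.10 and -0.10) and red cell markers (4 of 4 below 0 in each, medians -0.30 and -0.40) lay below 0 in the authors' deposited tables without any passing. All 4 red cell markers tested, and none of the Kupffer cell markers, had an unadjusted p under 0.05 in each deposited table. Their part in the members' values was not tested.

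**Figure D1:**
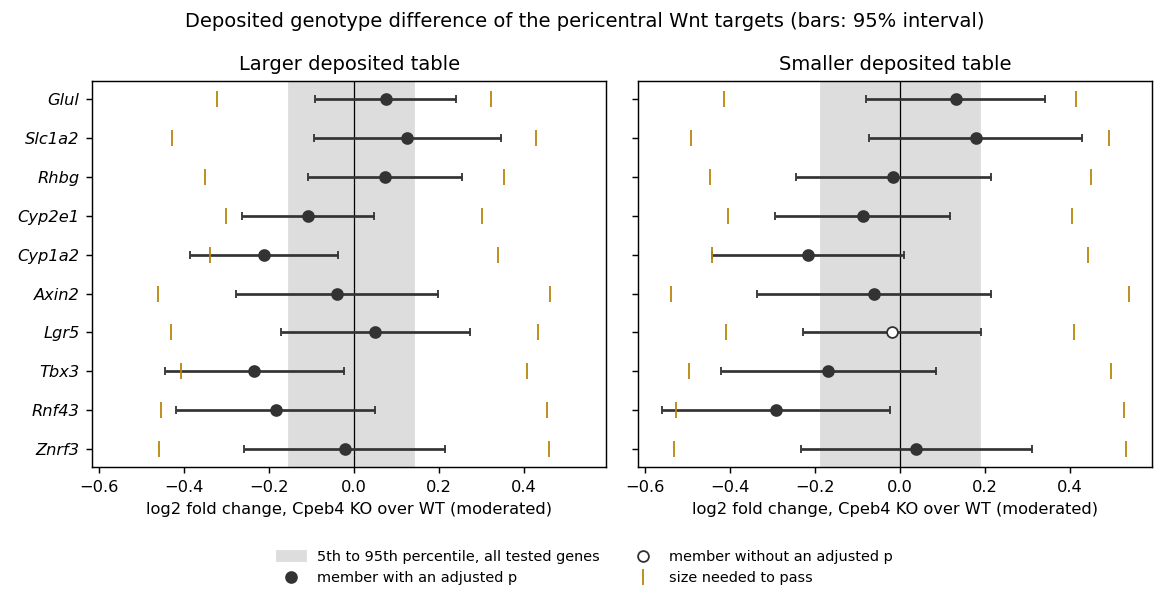
Deposited log2 fold change (Cpeb4 KO over WT, moderated, x axis) of each member with its 95% interval, in the larger and the smaller deposited table. Yellow ticks mark the size that a gene with that standard error would need to pass an adjusted p of 0.05, the grey band holds the 5th to 95th percentile of all tested genes, and no member lies beyond its ticks.

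The 3′ ends of these mRNAs were searched for the element that Cpeb4 reads, since its gene is knocked out in these mice. In the annotated 3′ UTR of 1 transcript a gene (GENCODE M21, GRCm38), 6 of 10 members held the CPE letters TTTTAT or TTTTAAT, searched on the sense strand. Of all tested genes with such an annotation, 59.0% and 58.5% did in the larger and smaller table. The match nearest to the annotated transcript end is shown for each of the 6, with the CPE in capitals.
Glul: tttttttttttcTTTTATagtaaacacac
Slc1a2: gtacaagaatgtTTTTATtgattagtagt
Axin2: cctttattaaaaTTTTATatttttcaaaa
Lgr5: atttatgagatgTTTTATaagatgtgtac
Tbx3: atttcaataaatTTTTATtgaaatga
Znrf3: aaaaaaatacaaTTTTATcaagtatgtgt
The sites lie at chr1:153909447-153909475 (plus strand, Glul), chr2:102789819-102789847 (plus strand, Slc1a2), chr11:108950755-108950783 (plus strand, Axin2), chr10:115450544-115450572 (minus strand, Lgr5), chr5:119684699-119684724 (plus strand, Tbx3) and chr11:5276324-5276352 (minus strand, Znrf3). The capitals end 11 bases before the transcript end in Axin2 and Znrf3 and 8 bases before it in Tbx3. They end 259, 948 and 244 bases before it in Glul, Slc1a2 and Lgr5. In all, Slc1a2 held 12 matches in 9250 bases, Lgr5 held 6 in 1703, and Glul, Tbx3 and Znrf3 held 4 each in 1541, 1632 and 3400 bases. Axin2 held 3 in 1388 bases. The letters were not found in the 3′ UTRs of Rhbg, Cyp2e1, Cyp1a2 and Rnf43, which are 506, 239, 291 and 1340 bases long. The 3 members with the lowest unadjusted p fall on both sides of this split, with 4 matches in Tbx3 and none found in Cyp1a2 or Rnf43.

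Glul, Slc1a2 and Rhbg handle nitrogen in the last hepatocytes before the central vein. Glutamine synthetase (Glul; GRCm38 chr1:153899944-153909723, plus strand) joins ammonia to glutamate, Slc1a2 (GLT-1; chr2:102658659-102790784, plus strand) imports glutamate, and Rhbg (chr3:88242874-88254709, minus strand) is an ammonium transporter of the Rhesus family. None of the 3 changed past the test. Glul had 0.07 ± 0.08 (SE) and 0.13 ± 0.11 on the log2 scale in the authors' deposited larger and smaller tables, with 95% intervals of -0.09 to 0.24 and -0.08 to 0.34. A moderated value of 0.32 and 0.41 would have been needed to pass there. Slc1a2 had the highest moderated fold change of the members in both of the authors' deposited tables, at 0.13 ± 0.11 and 0.18 ± 0.13. Its unadjusted p was 0.266 and 0.166 (DESeq2). Its smaller-table libraries had 2240 and 2048 normalised counts in the Cpeb4 KO and 1485 and 2126 in WT. Of the Cpeb4 KO libraries, 1 lay above both WT libraries and 1 between them, so the genotypes overlapped.

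Rhbg was counted at a low level. It had 45 and 29 reads in the Cpeb4 KO libraries and 34 and 17 in the WT libraries of the larger table, or 36.4 and 32.1 against 27.0 and 23.7 normalised counts. Both Cpeb4 KO libraries were above both WT libraries there, an order that 36.7% of the check genes showed in one direction or the other. The smaller table gave 46.2 and 28.6 normalised counts in the Cpeb4 KO and 33.3 and 46.5 in WT, which overlapped. The authors' deposited fold changes were 0.07 ± 0.09 and -0.02 ± 0.12. The first lies nearer 0 than the larger-table libraries do, so its rank among the members depends on the moderation. Of the 31-base words of Rhbg transcripts, 60.8% also occur in Gm38392, an annotated gene that overlaps it on the same strand, so its reads could be split between the annotations and its level is uncertain. Glul shares 19.7% of its words with 4 other genes. The labels do not state how reads that fit several genes were counted.

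Cyp2e1 (chr7:140763739-140774987, plus strand) oxidises ethanol and paracetamol, and Cyp1a2 (chr9:57676937-57683703, minus strand) oxidises caffeine and is also induced through the Ah receptor. Cyp2e1 had -0.11 ± 0.08 and -0.09 ± 0.11 in the authors' deposited larger and smaller tables, with intervals of -0.26 to 0.05 and -0.29 to 0.12. It was the most abundant member, at means of 182694 and 100506 normalised counts in the deposited tables, and had the lowest standard error of them. Cyp1a2 had the lowest unadjusted p of the members, 0.0175 in the authors' deposited larger table, which became 0.927 after adjustment (DESeq2, Wald test). Its fold change there was -0.21 ± 0.09 (interval -0.39 to -0.04), beyond 98.1% of tested genes by the size of the Wald score. The authors' deposited smaller table had -0.22 ± 0.12 (interval -0.44 to 0.01, unadjusted p = 0.0601). The single combination found for the smaller-table value had 2524 and 2602 normalised counts in the Cpeb4 KO and 2843 and 3354 in WT, without overlap. By chance alone 1.91 combinations were expected at this mean, so these library values and their order are uncertain. For the larger table the mean of 5126 was too high to be resolved into libraries.

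The promoters of Slc1a2 and Cyp1a2, members with opposite signs in both tables, are shown because each holds a match to a TCF motif, the binding letters of the factors that carry the Wnt signal. The forms CTTTGAT (3.73% of all promoters), CTTTGTT (5.85%) and CTTTGAA (5.14%) were searched on both strands of RefSeq promoters (GRCm38.p6, 250 bases before to 50 after a start), and matches are in capitals. Promoters were found for 6 of the 10 members.
Slc1a2: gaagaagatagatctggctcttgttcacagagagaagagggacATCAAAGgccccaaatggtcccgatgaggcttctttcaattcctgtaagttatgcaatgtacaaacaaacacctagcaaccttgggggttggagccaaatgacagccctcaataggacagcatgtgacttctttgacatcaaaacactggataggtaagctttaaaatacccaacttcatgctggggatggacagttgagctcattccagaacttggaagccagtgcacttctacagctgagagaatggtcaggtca
Cyp1a2: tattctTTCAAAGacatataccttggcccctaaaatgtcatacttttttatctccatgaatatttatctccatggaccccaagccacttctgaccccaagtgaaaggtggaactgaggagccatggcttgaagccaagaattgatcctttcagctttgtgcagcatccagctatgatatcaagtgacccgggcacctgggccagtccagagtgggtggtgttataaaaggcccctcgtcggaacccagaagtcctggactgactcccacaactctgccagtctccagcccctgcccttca
The Slc1a2 sequence is chr2:102706188-102706487 (plus strand), which lies inside the GENCODE gene, and the Cyp1a2 sequence is chr9:57683606-57683905 (minus strand). The Slc1a2 match begins 207 bases before the start and the Cyp1a2 match 244 bases before it, both on the opposite strand. Cyp2e1 has a match on its own strand, 135 bases before the start. These letters are not in the windows of Glul, Axin2 and Rnf43. Of 32851 promoters of this length, 13.9% hold at least 1 of the motifs, and binding was not measured in the series.

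Axin2, Rnf43 and Znrf3 are brakes on the pathway that it switches on itself. Axin2 (chr11:108920349-108950783, plus strand) is a scaffold of the complex that destroys beta-catenin, and it is widely used as a readout of Wnt activity. It had 248 and 301 normalised counts in the Cpeb4 KO libraries and 308 and 265 in the WT libraries of the larger table. The smaller table gave 207 and 220 in the Cpeb4 KO and 215 and 246 in WT. The genotypes overlapped in both tables. The authors' deposited fold changes were -0.04 ± 0.12 and -0.06 ± 0.14, with intervals of -0.28 to 0.20 and -0.34 to 0.21.

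Rnf43 (chr11:87662722-87735539, plus strand) and Znrf3 (chr11:5276324-5444847, minus strand) are related membrane ubiquitin ligases that remove Frizzled receptors from the cell surface. Rnf43 had 485 and 599 normalised counts in the Cpeb4 KO libraries and 769 and 559 in the WT libraries of the larger table, where 1 WT library lay between the Cpeb4 KO libraries. In the smaller table it had 303 and 321 in the Cpeb4 KO and 373 and 489 in WT, without overlap. Its fold change of -0.29 ± 0.14 in the authors' deposited smaller table was the lowest of the members there (unadjusted p = 0.0330, adjusted p = 0.999, DESeq2). In the authors' deposited larger table it was -0.18 ± 0.12 (unadjusted p = 0.123, DESeq2). Znrf3 had 238 and 251 normalised counts in the Cpeb4 KO and 248 and 254 in WT in the larger table. Its smaller-table libraries had 88.2 and 100.1 in the Cpeb4 KO and 88.5 and 87.0 in WT. The genotypes overlapped in both tables, and the authors' deposited fold changes were -0.02 ± 0.12 and 0.04 ± 0.14. The 2 ligases thus differed in the size of their values, and a difference between their fold changes was not tested.

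Lgr5 (chr10:115450311-115587780, minus strand) is a receptor for R-spondins, which keep Rnf43 and Znrf3 from removing Frizzled. It had 94 and 70 reads in the Cpeb4 KO libraries and 99 and 41 in the WT libraries of the larger table, or 76.1 and 77.5 against 78.7 and 57.1 normalised counts. In the smaller table it had 26.8 and 22.6 normalised counts in the Cpeb4 KO and 27.6 and 26.2 in WT. The authors' deposited fold changes were 0.05 ± 0.11 and -0.02 ± 0.11, and the genotypes overlapped in both tables.

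Tbx3 (chr5:119670669-119684724, plus strand) is a T-box transcription factor and a Wnt target of pericentral hepatocytes. It had 1478 and 1891 normalised counts in the Cpeb4 KO libraries and 2186 and 2002 in the WT libraries of the larger table. Its smaller-table libraries had 991 and 1412 in the Cpeb4 KO and 1413 and 1418 in WT. The Cpeb4 KO libraries were below the WT libraries in both tables, but the higher of them came within 1 normalised count of a WT library in the smaller table. How often other genes keep the same order in both tables was not computed. The authors' deposited larger table gave -0.23 ± 0.11 (interval -0.44 to -0.02, unadjusted p = 0.0286, adjusted p = 1.00, DESeq2). The authors' deposited smaller table gave -0.17 ± 0.13 (interval -0.42 to 0.08, unadjusted p = 0.192, DESeq2). Tbx3os1, an antisense transcript, overlaps the span of Tbx3, and a strand setting of the counting is not stated. Reads in any exon sequence that both share could not be told apart, and exon overlap was not checked. Genes on the opposite strand also overlap the spans of Glul, Slc1a2, Axin2, Lgr5 and Rnf43.

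**Figure D2:**
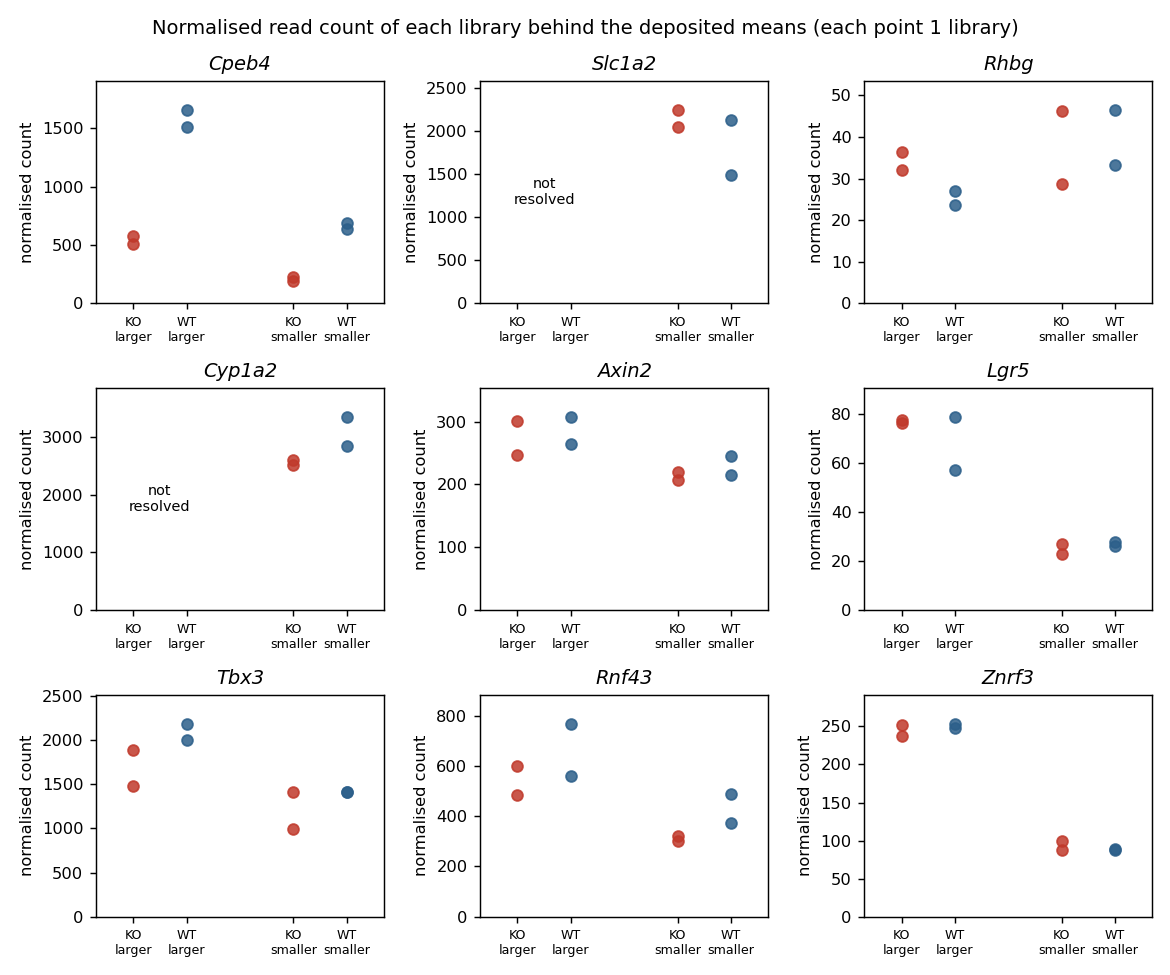
Normalised count (y axis, from 0) of Cpeb4 and of the members whose means could be resolved, in each Cpeb4 KO and WT library of the larger and the smaller table (each point is 1 library). Cpeb4 separates the genotypes widely (506 and 580 against 1511 and 1657 in the larger table), while the members' libraries overlap or lie close together.

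Over the members that could be resolved, the genotypes did not overlap for 2 of 6 in the larger table (Rhbg and Tbx3) and 3 of 8 in the smaller (Cyp1a2, Tbx3 and Rnf43). Among the check genes, all with means of at most 600, 36.7% and 37.8% did not overlap, so these counts were near that share. Tbx3 and Cyp1a2 had higher means than the check genes and less certain library values, so the share does not cover them directly. With 2 libraries a genotype, a gene would have needed a moderated log2 fold change of 0.30 to 0.46 in the larger table and of 0.40 to 0.54 in the smaller to pass, depending on the member's standard error. Smaller deposited values could not pass at this depth and number of libraries. These sizes are cuts on moderated values, so the unmoderated difference needed can be larger, and it was not estimated. The lower ends of the intervals for Cyp1a2 and Tbx3 in the larger table and for Rnf43 and Cyp1a2 in the smaller reach those sizes, so a difference large enough to pass is not outside their error.

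The genotype difference of the members was also compared between the tables. For none of the 9 members tested in both did this difference pass (z test of the smaller minus the larger deposited log2 fold change), against 0.0172% of 11604 genes with an adjusted p under 0.05. At an unadjusted p under 0.05, 0 of the 9 and 0.138% of all genes passed, and the lowest unadjusted p among the members was 0.548. The differences ran from -0.11 ± 0.18 (SE) for Rnf43 to 0.07 ± 0.17 for Tbx3 in values taken from the authors' deposited tables. The test treats the tables as independent, and all z values together had an SD of 0.535, so it is conservative.

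The members span a wide range of abundance. Per kilobase of annotated exon, Cyp2e1 had 84659 and 46574 normalised counts, Glul 11161 and 11243, and Cyp1a2 2546 and 1406, giving the larger table before the smaller. These placed the 3 above 99.8%, 98.2% and 92.7% of tested genes of the larger table. Slc1a2 and Tbx3 had nearly the same level in the larger table, at 287 and 285 per kilobase. The feedback genes were lower, with 91.9 for Rnf43, 50.9 for Axin2 and 31.4 for Znrf3 in that table. Rhbg, at 15.4, and Lgr5, at 7.05, were the lowest, and Lgr5 lay above 5.94% of tested genes. In the smaller table the order differed in that Tbx3 (198) stood above Slc1a2 (150.3) and Rhbg above Znrf3 (11.5). Exon lengths join all annotated transcripts of a gene, so genes with a long joined length, such as Slc1a2 (13133 bases) and Lgr5 (10264 bases), can read low on this scale.

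**Figure D3:**
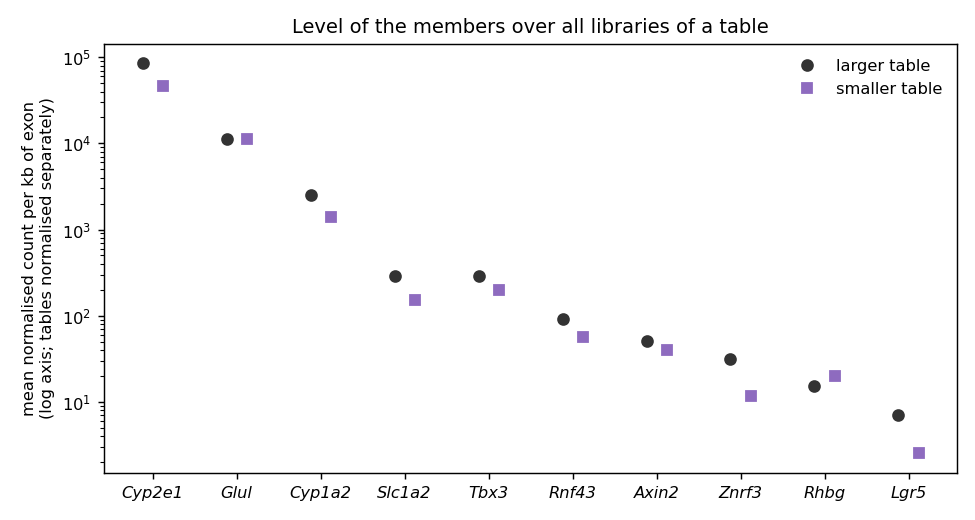
Mean normalised count per kilobase of annotated exon (y axis, log scale) of each member over all 4 libraries of the larger (circles) and the smaller table (squares), ordered by the larger table. Levels run from 84659 for Cyp2e1 to 7.05 for Lgr5 in the larger table.

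The 2 tables were normalised separately, so their levels can be set side by side only in rank. The smaller-table mean over the larger-table mean had a median of 0.838 over 11604 genes tested in both, with 5% of genes below 0.282. Lgr5 and Znrf3 had 0.357 and 0.367, lower than in all but 7.33% and 7.68% of these genes. Slc1a2, Cyp2e1 and Cyp1a2 had 0.524, 0.550 and 0.552, and Rnf43, Tbx3 and Axin2 had 0.616, 0.693 and 0.793. Glul (1.01) and Rhbg (1.30) stood above the median.

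Upstream parts of the Wnt pathway did not change past the test either. None of the tested genes for ligands and secretion (7 and 4 genes), receptors (12 and 10), the beta-catenin destruction complex and its transducers (21 in each), TCF factors and cofactors (13 and 11) or antagonists and feedback genes (5 and 3) passed in the authors' deposited larger and smaller tables (DESeq2, Wald test). Of all tested genes, 0.296% and 0.266% passed, so lists this short would seldom hold a passing gene. Without adjustment, 0, 2, 0, 1 and 0 of them had a p under 0.05 in the deposited larger table and 0, 0, 1, 0 and 0 in the smaller. The unadjusted share over all tested genes was 3.62% and 4.11%. The medians of these lists ran from -0.04 to 0.01 in the larger and -0.11 to 0.09 in the smaller of the authors' deposited tables. Rspo3, the R-spondin of the central vein, had 56.6 and 54.2 normalised counts in the Cpeb4 KO and 57.2 and 68.3 in WT in the larger table. In the smaller table it had 49.9 and 58.4 in the Cpeb4 KO and 43.7 and 42.9 in WT. The sign of its difference thus turned between the tables, and the authors' deposited fold changes were -0.05 ± 0.11 and 0.09 ± 0.13. Wnt2, a ligand of liver endothelium, had 27 and 38 reads in the Cpeb4 KO and 37 and 22 in WT in the larger table. Wnt9b, the ligand of central vein endothelium, had 7 and 7 reads in the Cpeb4 KO and 10 and 1 in WT there, too few to show a difference. Wnt4, another ligand, had 0.03 ± 0.09 and -0.08 ± 0.09 in the authors' deposited tables.

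Among receptors, Fzd6, a Frizzled, and Lrp5, a co-receptor, stood farthest from 0 in the larger table. Fzd6 had 129 and 162 normalised counts in the Cpeb4 KO and 89.0 and 101.7 in WT in the larger table, and 51.1 and 66.7 in the Cpeb4 KO and 34.5 and 48.9 in WT in the smaller. The Cpeb4 KO libraries were the higher ones in both tables. The authors' deposited fold changes of Fzd6 were 0.25 ± 0.12 and 0.13 ± 0.13, and those of Lrp5 were 0.21 ± 0.10 and 0.21 ± 0.13. All 10 receptors tested in the authors' deposited smaller table were above 0, and 6 of 12 in the larger, against 50.3% and 49.6% of all tested genes. The 10 values ran from 0.007 to 0.21, and none passed. Tle3, a corepressor that binds TCF, had 431 and 497 normalised counts in the Cpeb4 KO and 663 and 591 in WT in the larger table. Its smaller-table libraries had 403 and 406 in the Cpeb4 KO and 446 and 533 in WT, so the Cpeb4 KO libraries were below the WT libraries in both tables. Its deposited fold changes were -0.30 ± 0.11 and -0.18 ± 0.13 (adjusted p = 0.576 in the authors' deposited larger table, DESeq2). Pygo1, a beta-catenin cofactor, had 0.12 ± 0.07 and 0.05 ± 0.08 in the authors' deposited tables. Its larger-table libraries had 20.2 and 34.3 normalised counts in the Cpeb4 KO and 7.16 and 16.7 in WT, without overlap. In the smaller table it had 9.73 and 19.1 in the Cpeb4 KO and 11.5 and 7.15 in WT, which overlapped. At such low counts the moderated fold change understates the gap between the larger-table libraries. Fzd6, Lrp5, Tle3 and Pygo1 were named because their Wald scores were the largest of their lists in the larger table. Among the check genes, 36.7% and 37.8% did not overlap in the larger and smaller table. The share with the same order in both tables was not computed.

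Csnk1a1, the kinase that primes beta-catenin for destruction, had 0.14 ± 0.09 and 0.23 ± 0.11 in the authors' deposited tables, and Dvl3, which carries the signal from Frizzled, had -0.12 ± 0.11 and 0.02 ± 0.14. Beta-catenin itself (Ctnnb1) had -0.04 ± 0.08 and 0.02 ± 0.11 in the authors' deposited tables. Notum, a secreted Wnt deacylase, and Sp5, a transcription factor, are further Wnt targets. Notum had 157 and 144 normalised counts in the Cpeb4 KO and 152 and 87.8 in WT in the larger table, and Sp5 had 94.7 and 125 in the Cpeb4 KO and 134 and 114 in WT. The genotypes overlapped there for both genes. Smaller-table libraries of Notum had 23.7 and 36.9 in the Cpeb4 KO and 23.0 and 35.8 in WT, which overlapped. Sp5 had 111 and 107 in the Cpeb4 KO and 122 and 137 in WT in that table, without overlap. Of the check genes there, 37.8% did not overlap either. The authors' deposited fold changes were 0.12 ± 0.12 and 0.01 ± 0.11 for Notum and -0.07 ± 0.12 and -0.11 ± 0.14 for Sp5.

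Other genes of the pericentral and periportal zones were described beside the members. Both lists were chosen with earlier results of these data known, so their counts and medians are descriptions and no independent test of the zones. Of the other pericentral genes, 17 of 26 tested were below 0 in each of the authors' deposited tables, with medians of -0.08 and -0.05. Cyp2a5 and Cyp2c29, cytochromes P450 of drug metabolism, fell in the authors' deposited larger table, by 0.46 ± 0.09 and 0.44 ± 0.11 on the log2 scale (adjusted p = 0.000406 and 0.0248, DESeq2). In the authors' deposited smaller table they had -0.42 ± 0.11 and -0.38 ± 0.12 and did not pass (adjusted p = 0.0580 and 0.253, DESeq2). Sequence shared with related genes was not measured for them. Of the periportal genes, 18 and 21 of 26 were above 0, with medians of 0.12 and 0.15 in the authors' deposited tables. Of all tested genes, 49.6% and 50.3% were above 0. Without adjustment, 10 of the 26 periportal genes had a p under 0.05 in each deposited table, and 3 and 2 of the 26 other pericentral genes did. The share over all tested genes was 3.62% and 4.11%. Periportal genes with the opposite sign included Hsd17b6, at -0.25 ± 0.10 and -0.46 ± 0.14, and Cyp2f2, at -0.18 ± 0.09 and -0.20 ± 0.11, in the authors' deposited tables. Etnppl, an ethanolamine-phosphate lyase, rose by 0.62 ± 0.11 and 0.64 ± 0.12 (adjusted p = 5.17e-05 and 0.000262, DESeq2) in the authors' deposited tables. G6pc, the glucose-6-phosphatase, rose in the authors' deposited smaller table by 0.58 ± 0.13 (adjusted p = 0.00614, DESeq2). G6pc had 0.25 ± 0.12 in the authors' deposited larger table and did not pass there (adjusted p = 1.00, DESeq2). The member medians of -0.03 and -0.06 in the authors' deposited tables lay below those of the periportal genes, and above that of the other pericentral genes in the larger table but not in the smaller. Differences between these lists were not tested.

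**Figure D4:**
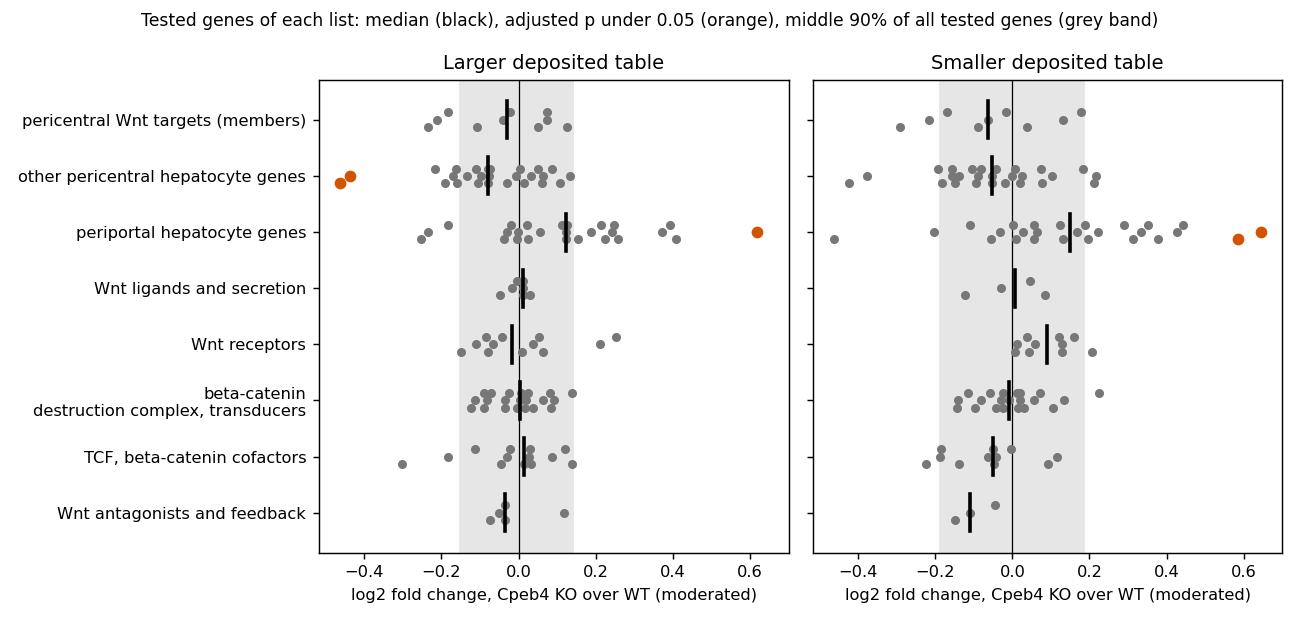
Deposited log2 fold change (Cpeb4 KO over WT, moderated, x axis) of every tested gene of the members and of 7 lists of zonation and Wnt pathway genes, in the larger and the smaller table (black bars are medians, orange points have an adjusted p under 0.05). The members centre on -0.03 and -0.06 with no gene called, and the periportal genes on 0.12 and 0.15. Members and lists were chosen with earlier results of these data known.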

How the data were processed

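RNA libraries of mouse liver and purified ER were sequenced by the authors. STAR 2.3.0e, DESeq2 1.6.3 and the build mm10 are named, without roles, per the submitters' processing notes. Each deposited table gives, per the file headers, a mean signal (counts over size factors), the log2 fold change and its standard error, a Wald score, a p-value and an adjusted p-value. The fold changes look moderated towards 0, so their sizes are not comparable between genes with few and with many reads. Tests cover the genes that have an adjusted p. Gene names, exons and transcripts came from GENCODE M21 (GRCm38), promoters from RefSeq (GRCm38.p6). Members and lists were chosen with earlier results of these data known. All members were named, and of each list the called genes or else the 2 largest by Wald score; Wnt2, Wnt9b, Ctnnb1, Hsd17b6 and Cyp2f2 were added after their values were seen.

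Whole reads per library were solved from the means (Python 3.11.15, numpy 2.4.6, pandas 2.3.3, scipy 1.17.1). Steps of single-read genes gave 4 relative depths, refined on 1020 genes, and all whole-number combinations within the printed digits were searched. For means of 600 or more, libraries between 0.4 and 1.8 times the mean were searched, a range that 0 of 409 and 2 of 466 check genes with means of 200 or more left. A value was kept where exactly 1 combination was found and fewer than 2 were expected by chance. That expectation was at most 0.0904 for the values given, except 0.536 and 0.171 for Tbx3, 0.615 for Slc1a2 and 1.91 for Cyp1a2, whose library values are less certain. The solver was tested on simulated reads at nominal means below 600, which does not cover the less certain values. The z test was tested on simulated fold changes that lacked the narrow spread of z seen here (SD 0.535). The labels do not say whether separate mice gave the 2 libraries of each group, so p-values measure the spread between libraries, which may be technical. Intervals are 95% normal intervals of the deposited, moderated estimates.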

Additional observations from a re-analysis of the deposited data

How the results depend on the processing

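No member passed under any of the alternatives run. With no filter on the mean, a mean of at least 100, an adjusted p threshold of 0.1 or fold changes recentred on the median, 0 members were called in each table (lowest adjusted p = 0.804 in the larger and 0.950 in the smaller, both at a mean of at least 100, from the authors' DESeq2 p-values). In that order, these settings tested 10, 8, 10 and 10 members in the larger table and 10, 7, 9 and 9 in the smaller. The mean of at least 100 left out Rhbg and Lgr5, and in the smaller table also Znrf3. Over all genes these settings called between 32 and 62 genes in the larger table and between 26 and 43 in the smaller. No member differed between the tables with no filter, recentred, or with z values divided by their SD (lowest adjusted p = 0.990). The filters leave each fold change as deposited and recentring moved none of them past 0, so these settings test the calls and not the signs. No paired analysis was possible because the tables carry no replicate numbers and the libraries solved from the means were not matched to labelled samples. Leaving out each library and a count test on the solved reads were not run. The 2 libraries a genotype limit what can pass, and so do the few reads of Lgr5 and Rhbg.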
